A study of Homo sapiens with 32 samples.

Results

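Among the miRNAs sequenced from 293T cells, those with precursor numbers from 2000 up to, but not including, 4000 were followed through loss of a DGCR8 segment that ERH is reported to bind, through ERH knockdown, and through both together. The number range held 222 of the 1513 miRNA rows of the count table, and 65 of them had a mean of at least 10 counts over the 32 libraries. These were selected on that mean count, and mir-3529 and mir-3618 were left out. Range and minimum were set with earlier results of these data known, so the values below describe these miRNAs and are not independent evidence of a direction. At the edge of the minimum, mir-3929, mir-3199 and mir-3682 lay just inside with means of 11.62, 11.31 and 10.97 counts, and mir-3129, mir-3944 and mir-3177 just outside with 9.84, 9.66 and 9.41.

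293T is a transformed human embryonic kidney line. The groups came from 8 single clones: wild-type clones 52, 55, 57 and 67, and clones 30, 34, 42 and 43 of genotype DGCR8 delta103-126Q, in which prime editing removed the codons so numbered. Every clone, in both genotypes, received 2 non-targeting control shRNA vectors and 2 ERH shRNA vectors in separate transient transfections, with puromycin selection and sorting on the vector's fluorescent marker on day 5. The 2 libraries per arm were added up within each clone, so that each of the 4 groups held 4 sums and the clone was the replicate. Knockdown strength and the edit were not measured in these small RNA counts, so the group labels were not checked against ERH or DGCR8.

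miRNAs are cut from hairpins in longer transcripts. DGCR8 binds the hairpin and DROSHA cuts its base, and DICER1 then cuts off the loop. ERH is a small nuclear protein that binds the DGCR8 N-terminus, and it is known for helping poorly recognised hairpins, such as mir-15a, be cut when a well recognised hairpin lies next to them in the same transcript. High precursor numbers were given late, since numbers follow the order of discovery, and many such miRNAs are of low abundance.

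The sequences below belong to the 12 miRNAs whose changes are described in most detail and to mir-3613, which is compared with mir-15a. They are mature arms from RefSeq (GRCh38.p14), 5′ to 3′, with the seed (bases 2 to 8), the stretch that mainly selects targets, in capitals. The first 6 miRNAs had the largest increases after ERH knockdown by the naming rule, the next 6 the largest in deletion clones.
miR-3187-5p: cCUGGGCAgcguguggcugaagg
miR-3187-3p: uUGGCCAUggggcugcgcgg
miR-3176: aCUGGCCUgggacuaccgg
miR-3157-5p: uUCAGCCAggcuagugcagucu
miR-3157-3p: cUGCCCUAgucuagcugaagcu
miR-3679-5p: uGAGGAUAuggcagggaagggga
miR-3679-3p: cUUCCCCCcaguaaucuucauc
miR-3144-5p: aGGGGACCaaagagauauauag
miR-3144-3p: aUAUACCUguucggucucuuua
miR-2110: uUGGGGAAacggccgcugagug
miR-3611: uUGUGAAGaaagaaauucuua
miR-3145-5p: aACUCCAAacacucaaaacuca
miR-3145-3p: aGAUAUUUugaguguuuggaauug
miR-3158-5p: cCUGCAGAgaggaagcccuuc
miR-3158-3p: aAGGGCUUccucucugcaggac
miR-3179: aGAAGGGGugaaauuuaaacgu
miR-3684: uUAGACCUaguacacguccuu
miR-3133: uAAAGAACucuuaaaacccaau
miR-3613-5p: uGUUGUACuuuuuuuuuuguuc
miR-3613-3p: aCAAAAAAaaaagcccaacccuuc

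The RefSeq table gave 93 mature arms for 63 of the 65 miRNAs. The 93 seeds were all different, so the 65 miRNAs do not form a seed family. The seed of 21 arms was also that of another miRNA in the table; the seed of miR-3187-5p, for instance, is shared with miR-1285-3p. A count row held both arms of a hairpin, so the arms were not told apart in the values that follow.

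The 65 miRNAs were scarce. Mean counts per library ran from 10.97 to 1351, with a median of 30.7, and 42 miRNAs had a mean under 50 counts. The libraries held between 1318923 and 6222790 miRNA counts, of which 1856 to 13471 came from these miRNAs. The row mir-3144 alone supplied 22.7% of their counts and the 8 most abundant rows 61.2%. In each library 63 to 65 of them had at least 1 count, and 57 had one in every library. For 24 of the 65, the mean in wild-type control libraries was below 10 counts, against 1 in deletion control, 1 in wild-type ERH and 0 in deletion ERH libraries, so some passed the minimum through groups in which they were higher.

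In genomic position the group was uniform in one respect. None of the 65 had another expressed hairpin within 10 kb on the same strand, whereas 102 of all 477 rows with a mean of at least 10 counts did (GENCODE release 29, GRCh38). In this annotation 37 lay in an intron of a protein-coding gene, 5 in an exon of one and 6 in another host transcript, and 17 had no host on their strand. For 8 of them, several loci shared a row. Hairpin GC content ran from 20.3% to 74.4% with a median of 48.5%, against a median of 47.4% for the 412 other rows of that abundance.

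As a share of all miRNA counts, the 65 miRNAs were lowest in wild-type control cells. There the summed share was 0.128% ± 0.016 (SD, n = 4), with values of 0.144, 0.130, 0.106 and 0.132% in clones 52, 55, 57 and 67. ERH shRNAs brought these clones to 0.323, 0.263, 0.225 and 0.217%, a mean of 0.257% ± 0.0485 (SD, n = 4). The 2 arms of wild-type clones did not overlap. Deletion clones 30, 34, 42 and 43 already stood at 0.251, 0.275, 0.211 and 0.242% under control shRNAs, a mean of 0.245% ± 0.0264 (SD, n = 4), above all wild-type control values and overlapping those of wild-type cells under ERH shRNAs. Under ERH shRNAs the deletion clones reached 0.365, 0.369, 0.293 and 0.395%, a mean of 0.355% ± 0.0439 (SD, n = 4).

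The share was higher under ERH shRNAs in every clone, 1.65- to 2.25-fold in wild-type and 1.35- to 1.63-fold in deletion clones. These folds are a description, since the miRNAs were chosen with such values known, and they carry no test. Each ERH shRNA gave a higher share than each control shRNA in 8 of 8 clones. Between the control vectors, shRNA 2 over shRNA 1 gave 0.92- to 1.23-fold. The pattern did not rest on mir-3144 alone, since without it the mean shares were 0.106, 0.186, 0.193 and 0.277% in the order wild-type control, wild-type ERH, deletion control and deletion ERH.

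**Figure D1:**
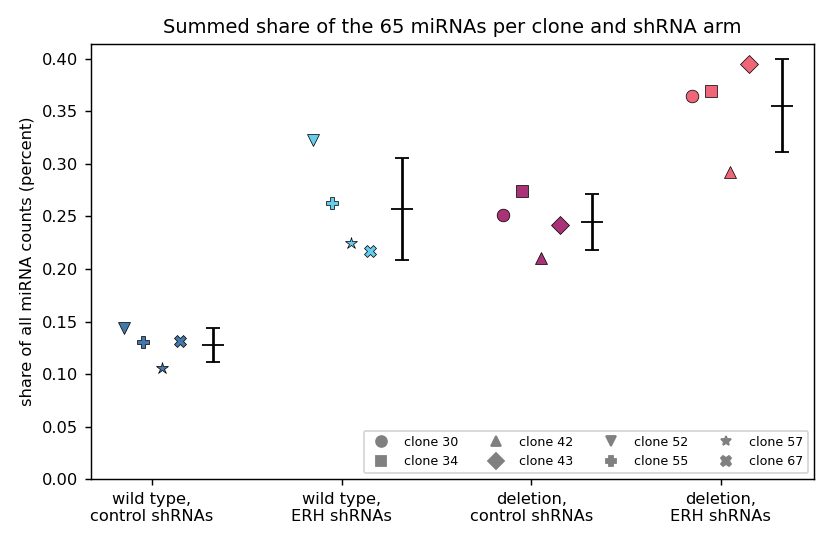
Summed share of the 65 miRNAs in all miRNA counts (vertical axis, percent) per clone, genotype and shRNA arm; each symbol is 1 clone, the sum of 2 libraries, and the bars are the mean and SD of 4 clones. Wild-type control clones lie between 0.106 and 0.144%, below all other clones, and deletion clones under ERH shRNAs between 0.293 and 0.395%.

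ERH knockdown was compared within the 8 clones. Of the 65 miRNAs, 36 rose and 2 fell (quasi-likelihood test of edgeR with the clone as block, Benjamini-Hochberg adjusted p under 0.05 over the 667 rows tested). Over all rows tested, 20.1% rose and 16.5% fell. The median log2 fold change of the 65 was 0.59, beside 0.06 over all rows, and 58 of the 65 lay above 0. Higher values in all 8 clones were seen for 23 of the 65, beside 11.1% of all rows. For the 41 of them that had a mean of at least 10 counts in wild-type control libraries, a condition chosen after the data were seen, 22 rose and 2 fell, with a median of 0.55. Directions are relative to the TMM scale: with spike-in scaling 51 of the 65 rose and 0 fell, at a median of 1.03, and with total miRNA scaling 49 rose and 0 fell, at 0.86. All rows moved upward with them: 233 of the 667 rose and 22 fell with spike-in scaling, at a median of 0.52, and 210 rose and 36 fell with total scaling, at 0.33.

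The miRNA mir-3157 (chromosome 10, 96064315 to 96064399, intron of ENTPD1-AS1) had the smallest adjusted p of the 6 named for the knockdown. Its levels were 43.2, 33.0, 35.6 and 49.6 CPM (counts scaled to library size, with TMM factors) in wild-type clones 52, 55, 57 and 67 under control shRNAs, and 134, 87.0, 111 and 158 CPM under ERH shRNAs. In deletion clones 30, 34, 42 and 43 it went from 83.3, 93.0, 61.9 and 128 CPM to 138, 166, 124 and 248 CPM. It was higher under ERH shRNAs in 8 of 8 clones, as the naming rule required of these 6. All deletion control values lay above all wild-type control values. The log2 fold change was 1.22 (SE 0.15; edgeR, adjusted p = 8.60e-07) for the knockdown over all clones, and 1.21 (SE 0.31; edgeR, adjusted p = 0.0142) for the deletion under control shRNAs.

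The 2 most GC-rich of the named hairpins showed the largest knockdown changes. mir-3176 (chromosome 16, 543277 to 543366, intron of the calpain-family gene CAPN15, 74.4% GC) stood at 4.49, 8.86, 17.4 and 23.0 CPM in wild-type control clones and at 43.3, 47.1, 50.8 and 32.9 CPM under ERH shRNAs. In deletion clones it went from 26.8, 34.9, 22.1 and 27.6 CPM to 45.0, 41.4, 41.8 and 51.5 CPM. The arms did not overlap in either genotype, and the log2 fold change over all clones was 1.23 (SE 0.24; edgeR, adjusted p = 0.000521). mir-3187 (chromosome 19, 813584 to 813653, 70.0% GC, opposite the gene PLPPR3) was at 5.24, 5.91, 6.30 and 12.9 CPM in wild-type control clones and at 25.6, 8.30, 15.8 and 31.4 CPM under ERH shRNAs. Its deletion clones went from 7.81, 23.1, 5.81 and 3.98 CPM to 20.1, 23.3, 15.8 and 15.7 CPM, with clone 34 nearly level. Its log2 fold change was 1.26 (SE 0.23; edgeR, adjusted p = 0.000281).

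The most abundant of the 65, mir-3144 (chromosome 6, 120015179 to 120015257, no host on either strand), ranged widely between clones. Wild-type clones had 428, 413, 207 and 68.2 CPM under control shRNAs and 995, 875, 665 and 243 CPM under ERH shRNAs. Deletion clones had 689.7, 398, 234 and 666 CPM and then 893, 428, 309 and 1005 CPM. Every clone was higher under ERH shRNAs, although the arms overlapped in both genotypes. The log2 fold change was 0.90 (SE 0.16; edgeR, adjusted p = 0.000198) within clones, and without the clone block it did not pass the threshold.

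mir-2110 (chromosome 10, 114174105 to 114174179) lies in an exon of CCDC186. It went from 55.7, 34.4, 58.2 and 78.0 CPM to 154, 88.8, 98.8 and 131 CPM in wild-type clones and from 61.7, 119, 78.4 and 120.3 CPM to 118, 126, 160.2 and 201 CPM in deletion clones. It rose by 0.89 on the log2 scale (SE 0.15; edgeR, adjusted p = 0.000101), and clone 34 again moved least. mir-3679 (chromosome 2, 134127125 to 134127192) lies in an intron of MGAT5, which encodes an enzyme of N-glycan branching. It went from 17.7, 23.9, 22.2 and 37.9 CPM to 62.6, 45.5, 34.9 and 92.5 CPM in wild-type clones and from 31.2, 63.4, 46.7 and 44.5 CPM to 52.9, 91.5, 77.0 and 70.4 CPM in deletion clones. edgeR gave a log2 change of 0.91 (SE 0.16; edgeR, adjusted p = 0.000148).

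The 2 that fell with TMM scaling were mir-3662 and mir-3143, named here after their values were seen because they are the only ones. With spike-in or total miRNA scaling 0 of the 65 were lower past the threshold, so neither fall was called there. mir-3662 (intron of HBS1L, a translation-related GTPase gene) went from 12.98, 23.1, 24.1 and 16.8 CPM to 4.38, 11.2, 12.3 and 9.66 CPM in wild-type clones, a fall in 4 of 4. In deletion clones it went from 8.81, 8.76, 7.82 and 15.1 CPM to 7.01, 10.2, 5.88 and 4.26 CPM, with clone 34 higher. Its log2 fold change over all clones was -0.83 (SE 0.23; edgeR, adjusted p = 0.00808). For mir-3143 it was -0.64 (SE 0.23; edgeR, adjusted p = 0.0349), lower in 7 of 8 clones.

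**Figure D2:**
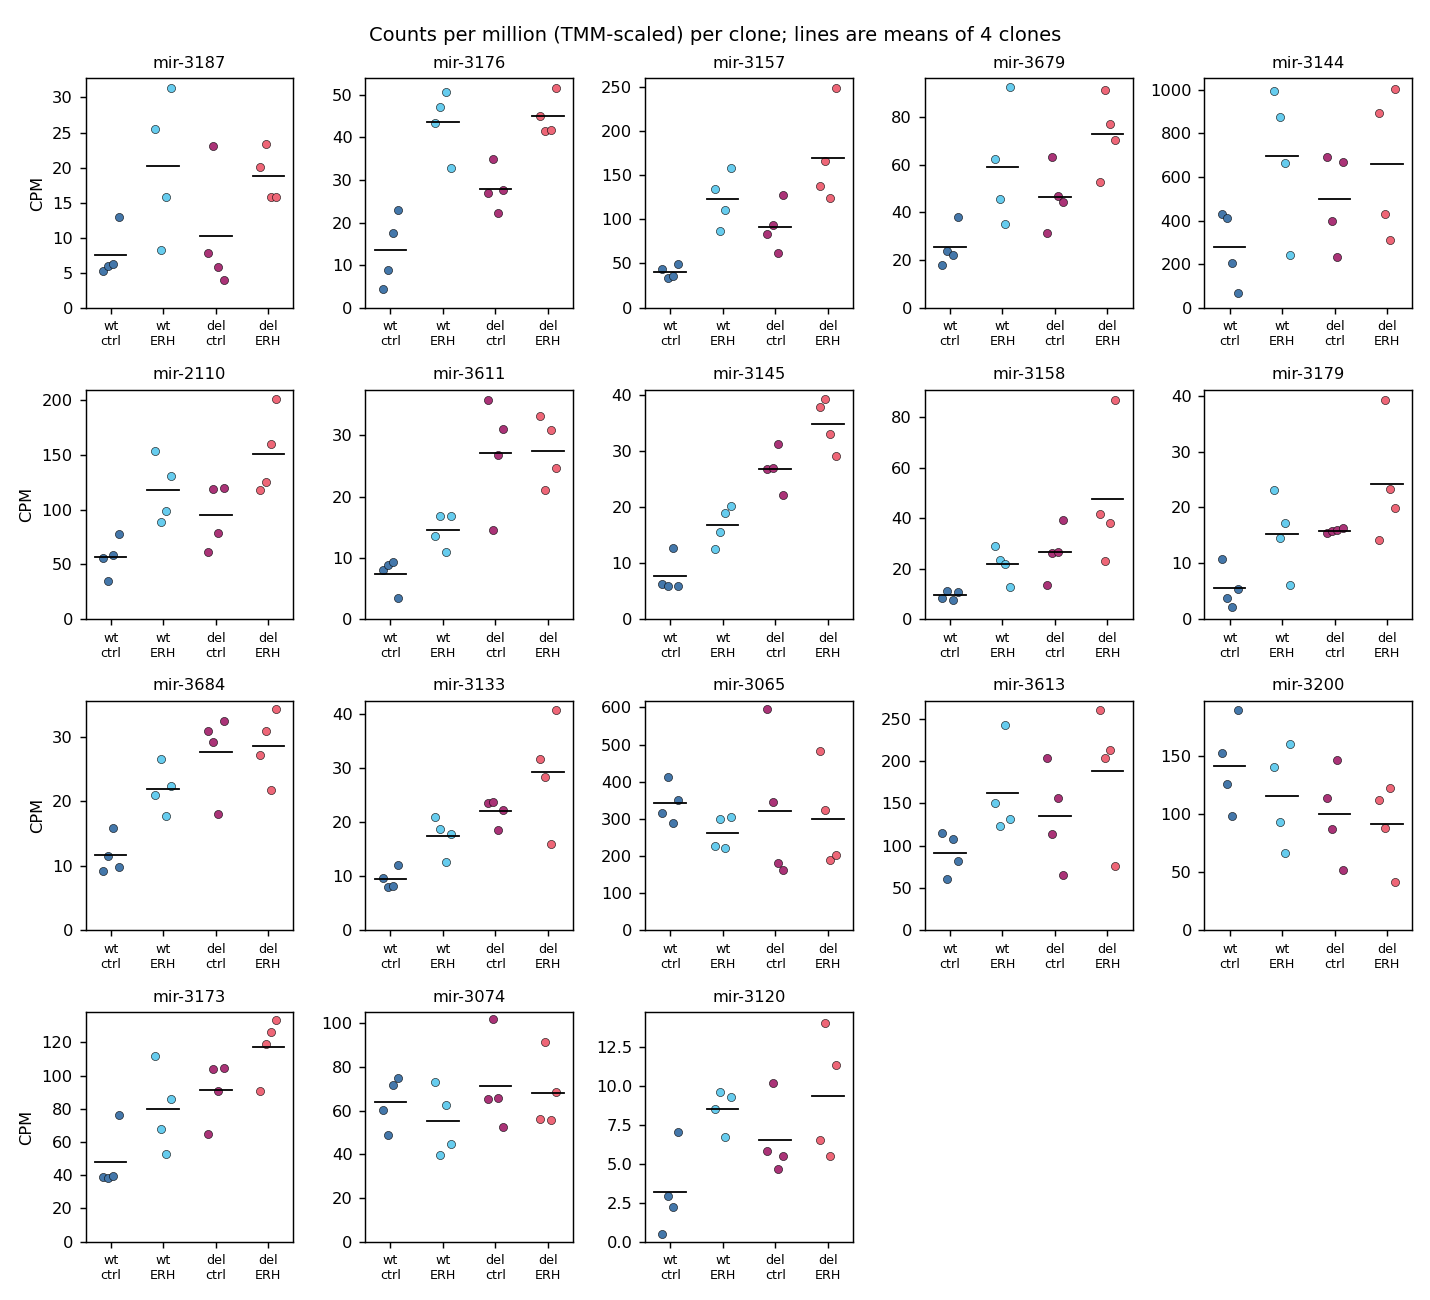
CPM (vertical axes, linear, each starting at 0) of the 18 miRNAs named by rule; each point is 1 clone in 1 arm (wt, wild type; del, deletion; ctrl, control shRNAs) and each line the mean of 4 clones. In mir-3157 the wild-type control points, at 33.0 to 49.6 CPM, lie below all other points, while mir-3065, mir-3200 and mir-3074 show no such order.

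Within wild-type clones 32 of the 65 rose and 1 fell after knockdown (edgeR, clone as block), at a median log2 fold change of 0.89, beside 0.09 over the 613 rows tested, of which 20.9% rose and 10.4% fell. Within deletion clones 10 rose and 0 fell, at a median of 0.37 beside 0.01, when 4.27% of 633 rows rose and 6% fell. Among the 10 were mir-3157, mir-3187, mir-3176, mir-2110 and mir-3679 of the named miRNAs, with log2 fold changes from 0.66 to 1.12. The difference in knockdown effect between the genotypes was tested itself, as an interaction. None of the 65 passed (edgeR; 13 had an unadjusted p under 0.05, and DESeq2 called 1), and 0% of the 667 rows did. The median interaction of the 65 was -0.32 on the log2 scale, beside 0.00 over all rows, with the smaller knockdown change in deletion clones. It was -0.25 for the 240 other rows with no neighbour within 10 kb and mean counts in the range of the 65. After knockdown those 240 gave 85 higher and 11 lower in wild-type clones, at a median of 0.42. In deletion clones they gave 16 higher and 5 lower, at 0.06. In 9 of the 65 (13.8%), including mir-3144, mir-3145 and mir-3157, every deletion clone changed less than every wild-type clone, beside 8.85% of all rows. Among the 9 were mir-3942 and mir-3115, with means of 5.12 and 9.50 counts in wild-type control libraries. They passed the minimum through groups in which they were higher, so their larger wild-type change is tied to the selection. For mir-3144 the interaction was -1.04 (SE 0.21; edgeR, adjusted p = 0.0851).

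Counts of calls within a genotype leaned on single vectors and clones. In wild-type clones the 33 calls became 16 with ERH and control shRNA 1 alone, 1 with shRNA 2 alone, 16 without clone 55 and 20 without clone 57. Over all rows the 192 calls became 200, 20, 126 and 112 in the same settings. In deletion clones the 10 became 18 without clone 34 and 2, 3 or 6 without clone 42, 30 or 43, 1 with shRNA 2 alone, and 0 without the clone block. Over all rows the 65 calls there became 119, then 38, 30 or 44, then 19 and 13 in the same settings.

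The DGCR8 deletion was compared under control shRNAs, 4 clones against 4, which addresses the absence of the segment while ERH is present. Of the 65, 18 were higher and 0 lower in deletion clones at an adjusted p under 0.05 (edgeR over 536 rows, of which 18.8% were higher and 7.09% lower). The median log2 difference was 0.75, beside -0.03 over all rows. In 18 of the 65 all deletion clones lay above all wild-type clones, or 27.7%, beside 19% of all rows, and 1 of the 65 lay wholly below, beside 10.3% of all rows. Among the 41 that had a mean of at least 10 counts in wild-type control libraries, 13 were higher and 0 lower.

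The largest of these differences was in mir-3611 (chromosome 10, 35079598 to 35079680, intron of CUL2, a ubiquitin ligase scaffold; 26.5% GC). Under control shRNAs it had 7.99, 8.86, 9.27 and 3.37 CPM in wild-type and 35.8, 14.5, 26.8 and 31.0 CPM in deletion clones. Under ERH shRNAs it had 13.6, 16.9, 10.96 and 16.8 CPM in wild-type and 33.2, 21.1, 30.8 and 24.6 CPM in deletion clones. Deletion clones lay above wild-type clones in both arms, which the naming rule required under control shRNAs only. The log2 difference was 1.88 (SE 0.41; edgeR, adjusted p = 0.00922) under control and 0.94 (SE 0.28; edgeR, adjusted p = 0.196) under ERH shRNAs. In deletion clones ERH shRNAs moved it by 0.06 on the log2 scale (SE 0.18), up in 2 clones and down in 2.

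mir-3145 (chromosome 6, 138435213 to 138435294, intron of NHSL1; 31.7% GC) was separate between the genotypes in both arms, again by the naming rule under control shRNAs. Wild-type control clones had 6.24, 5.91, 12.6 and 5.89 CPM and deletion control clones 26.8, 27.0, 31.3 and 22.1 CPM. ERH shRNAs brought them to 12.4, 15.5, 18.9 and 20.2 CPM and to 37.8, 39.2, 33.0 and 29.03 CPM. All 8 clones were higher under ERH shRNAs. The log2 difference under control shRNAs was 1.83 (SE 0.34; edgeR, adjusted p = 0.00796), and the knockdown change over all clones was 0.73 (SE 0.19; edgeR, adjusted p = 0.00568). The control sums enter both comparisons, so this knockdown value is tied to the naming.

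mir-3158 has 2 loci on opposite strands of one place on chromosome 10, so that its row mixes both. It had 8.49, 11.01, 7.42 and 10.7 CPM in wild-type and 13.6, 26.3, 26.6 and 39.3 CPM in deletion control clones, a log2 difference of 1.52 (SE 0.37; edgeR, adjusted p = 0.0128). mir-3179 has 4 loci and was at 10.7, 3.76, 2.22 and 5.33 CPM in wild-type and 15.4, 15.8, 15.9 and 16.3 CPM in deletion control clones. Its log2 difference was 1.49 (SE 0.43; edgeR, adjusted p = 0.0270), which did not pass without clone 34, 42, 55 or 67. For both, the genotypes were separate under control shRNAs, which the naming rule required, and overlapped under ERH shRNAs, where it required nothing. The contrast between the arms is therefore tied to the selection.

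mir-3684 (chromosome 4, 98997387 to 98997460) lies in an intron of METAP1, which encodes a methionine aminopeptidase, and has 36.5% GC. It had 9.24, 11.6, 15.9 and 9.82 CPM in wild-type and 30.8, 29.2, 18.1 and 32.5 CPM in deletion control clones, a log2 difference of 1.27 (SE 0.32; edgeR, adjusted p = 0.0142). mir-3133 (chromosome 2, 241477905 to 241477982) lies in an intron of FARP2, a guanine nucleotide exchange factor gene, and has 28.2% GC. It had 9.74, 8.06, 8.16 and 12.1 CPM in wild-type and 23.4, 23.6, 18.6 and 22.2 CPM in deletion control clones, a log2 difference of 1.22 (SE 0.29; edgeR, adjusted p = 0.0120). After the GC correction the differences were 0.86 for mir-3684, 0.37 for mir-3133 and 1.00 for mir-3611, and none of the 3 passed.

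Among the abundant ones, mir-3173 lies in an intron of DICER1, the gene of the second processing enzyme (chromosome 14, 95137919 to 95137986). It had 38.7, 38.1, 39.3 and 76.0 CPM in wild-type and 64.7, 104, 91.0 and 104 CPM in deletion control clones, so that wild-type clone 67 overlapped the deletion clones. The log2 difference was 0.96 (SE 0.31; edgeR, adjusted p = 0.0381). Leaving out any 1 of clones 34, 42, 43, 52, 55 and 57 ended this call. Under ERH shRNAs the row rose within clones by 0.55 on the log2 scale (SE 0.15; edgeR, adjusted p = 0.00808), in 8 of 8.

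The same genotypes were then compared under ERH shRNAs. None of the 65 passed (edgeR over 569 rows, of which 0% passed; 16 of the 65 had an unadjusted p under 0.05, and DESeq2 called 2). The median log2 difference of the 65 was 0.41, beside 0.04 over all rows. In 9 of them (13.8%), mir-3611 and mir-3145 included, all deletion clones lay above all wild-type clones, beside 8.26% of all rows. The 4 wild-type control sums enter the wild-type knockdown, the control-arm deletion comparison and the interaction alike. Between the 2 control vectors none of the 65 differed (edgeR over 571 rows, of which 0% passed; 9 had an unadjusted p under 0.05, and DESeq2 called 0).

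**Figure D3:**
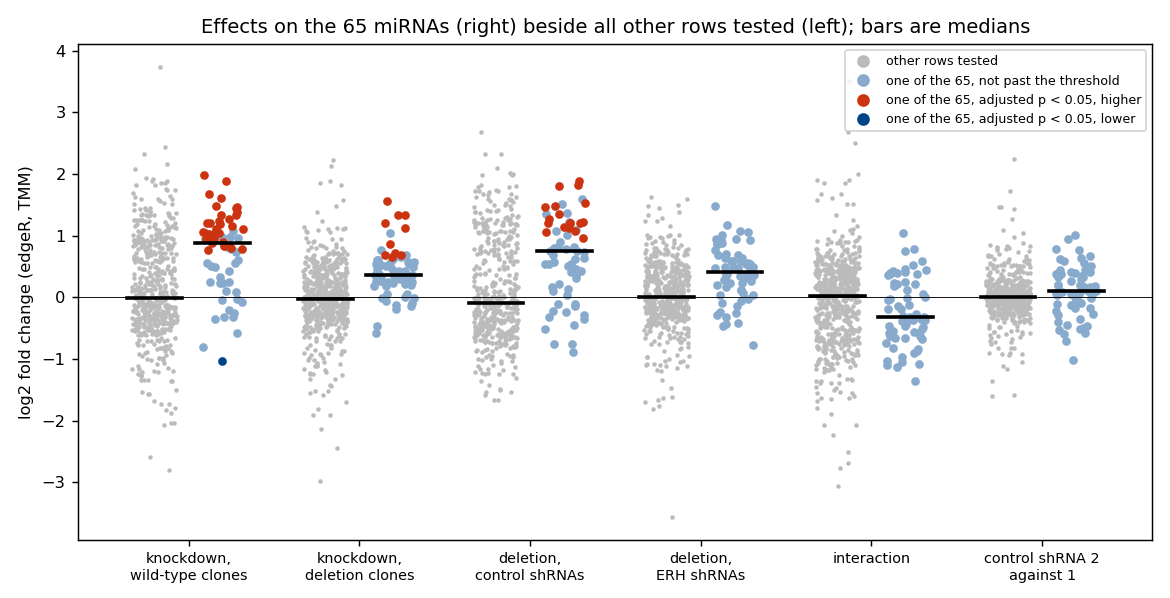
Log2 fold change (vertical axis) of the 65 miRNAs (right of each pair) and of all other rows tested (left) in 6 comparisons; each point is 1 row and each black bar a median. The medians of the 65 are 0.89 and 0.37 for the knockdown in wild-type and deletion clones, 0.75 and 0.41 for the deletion under control and ERH shRNAs, -0.32 for the interaction and 0.10 between control vectors.

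A further group, from a list of hairpins that lie opposite another miRNA hairpin, held mir-3065, mir-3074 and mir-3120. mir-3065 (chromosome 17, 81125877 to 81125955), opposite mir-338, had 316, 413, 289 and 350 CPM in wild-type control clones and 228, 299, 221 and 305 CPM under ERH shRNAs. Its deletion clones went from 595, 346, 182 and 161 CPM to 481, 325, 190 and 204 CPM. All 4 wild-type clones were lower and deletion clones were split 2 and 2. The knockdown log2 fold change of -0.19 (SE 0.13; edgeR, adjusted p = 0.246) did not pass, and was 0.27 with spike-in and 0.08 with total miRNA scaling. Across the strand, mir-338 fell by 0.65 on the log2 scale (SE 0.14; edgeR, adjusted p = 0.000896), a value given with TMM scaling only.

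mir-3074 (chromosome 9, 95086014 to 95086094), opposite mir-24-1, had 60.2, 48.9, 71.9 and 74.9 CPM in wild-type control and 65.3, 102, 65.9 and 52.6 CPM in deletion control clones. Its knockdown log2 fold change was -0.15 (SE 0.15; edgeR, adjusted p = 0.458), and positive under spike-in (0.31) and total miRNA scaling (0.12). The mir-24 row, which is not limited to the mir-24-1 locus, fell by 0.33 on the log2 scale (SE 0.11; edgeR, adjusted p = 0.0211). This value is with TMM scaling, and the other scalings are not given for mir-24, so its direction under them is left unstated. mir-3120 (chromosome 1, 172138808 to 172138888, intron of the dynamin gene DNM3, opposite mir-214) had 0.499, 2.96, 2.22 and 7.01 CPM in wild-type control clones and 8.52, 9.63, 6.70 and 9.32 CPM under ERH shRNAs. It was higher under ERH shRNAs in 8 of 8 clones. With a mean of 5.50 counts in wild-type control libraries it is one of the 24 below 10 counts there, so its level in that group is tied to how it was selected and no test is given for it. The 8 most abundant of the 65 also included mir-3200 (intron of OSBP2), at 152, 126, 98.2 and 189 CPM in wild-type control and 113, 86.9, 146 and 51.9 CPM in deletion control clones. Its knockdown log2 fold change was -0.24 (SE 0.13; edgeR, adjusted p = 0.158), and 0.22 with spike-in scaling.

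By genomic position, 23 of the 37 miRNAs in protein-coding introns rose after knockdown over all clones, at a median log2 fold change of 0.65, and 6 of the 17 with no host on their strand, at 0.16. Under the deletion with control shRNAs the counts were 14 of 37, at a median of 1.00, and 2 of 17, at 0.22. Among the 5 in protein-coding exons 3 rose after knockdown and 0 were higher in deletion clones. Of the 6 in another host, 4 rose after knockdown, at a median of 0.63, and 2 were higher in deletion clones under control shRNAs. No split by host was made for the remaining rows, so these counts have no background and describe the 65 only. Whether the host classes differ was not tested. Other rows without a neighbour within 10 kb gave 97 higher and 52 lower of 490 after knockdown, at a median of 0.11. The 240 of these within the range of mean counts of the 65 gave 78 higher and 24 lower, at 0.25. For the deletion under control shRNAs, rows without a neighbour gave 82 of 369 higher (22.2%), and those within the count range 74 of 238 (31.1%), at a median of 0.49, beside 27.7% and 0.75 for the 65. After knockdown the 112 rows with a neighbour gave 1 higher and 56 lower, at -0.31.

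Hairpin GC content moved with the calls, in a way that differed between the comparisons. The split was made at the median GC of 48.5% after the data were seen. Under the deletion with control shRNAs, 15 of the 33 miRNAs at or below it were higher, against 3 of the 32 above, with medians of 1.08 and 0.54. The 18 called had a median GC of 39.8% and the other 47 one of 52.9%. After knockdown in wild-type clones 20 of 33 and 12 of 32 rose, and in deletion clones 1 of 33 and 9 of 32. Fits that corrected for GC content changed which side held the calls: 7 higher and 1 lower of the 33 against 10 of the 32 for the deletion, with medians of 0.77 and 0.81, and 12 against 16 for the knockdown in wild-type clones. In deletion clones they gave 3 against 9. Before the correction, other rows showed a like split for the deletion, with 72 of 243 higher at or below 48.5% and 9 of 220 above it. The same held for the knockdown in wild-type clones, with 75 of 276 (27.2%) and 19 of 261 (7.3%). In deletion clones 10 of 288 and 7 of 268 other rows rose. After the correction, other rows still had more calls at or below 48.5%: 43 of 243 higher against 13 of 220 for the deletion. For the knockdown in wild-type clones they gave 60 of 276 against 27 of 261. Over all clones, 19 of 33 and 17 of 32 of the miRNAs rose without the correction, beside 65 of 302 and 30 of 286 other rows. The part of GC content in these results beyond this correction was not tested.

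mir-3613 offered a comparison within 1 annotated host gene. It lies in an intron of the long non-coding RNA gene DLEU2 (chromosome 13, 49996415 to 49996501), 52.6 kb from mir-15a (50049119 to 50049201) on the same strand. This comparison was chosen after the data were seen, and whether 1 transcript holds both hairpins was not tested. mir-3613 went from 115, 60.4, 108 and 81.9 CPM to 150.2, 124, 242 and 131 CPM in wild-type clones 52, 55, 57 and 67, and from 204, 114, 156 and 64.9 CPM to 261, 204, 214 and 76.3 CPM in deletion clones 30, 34, 42 and 43. It was higher under ERH shRNAs in 8 of 8 clones, a log2 change of 0.64 (SE 0.14; edgeR, adjusted p = 0.00120), while mir-15a fell by 1.75 on the log2 scale (SE 0.13; edgeR, adjusted p = 6.12e-10). The mir-16 row, taken as a further partner at this locus, fell by 0.26 (SE 0.09; edgeR, adjusted p = 0.0276). Whether its counts come from this locus alone was not tested.

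The log2 ratio of mir-3613 to mir-15a counts does not depend on library scaling. It was -5.11 ± 0.63 (SD, n = 4) in wild-type control and -2.71 ± 0.36 (SD, n = 4) in wild-type ERH sums, and -4.48 ± 0.74 and -2.11 ± 0.80 (SD, n = 4 each) in deletion control and ERH sums. Under ERH shRNAs it was higher by 2.39 ± 0.49 (SD, n = 8), in 8 of 8 clones; this is a description, with no test, since the pair was picked for its opposite changes. The difference was 2.4 ± 0.59 in wild-type and 2.37 ± 0.48 in deletion clones (SD, n = 4 each), which differ by -0.03 (p = 0.886 by a two-sided exact permutation test, 0.886 adjusted over 2 tests). Under control shRNAs the ratio was 0.63 higher in deletion clones, which was within the spread of clones (p = 0.257 by a two-sided exact permutation test, 0.514 adjusted).

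**Figure D4:**
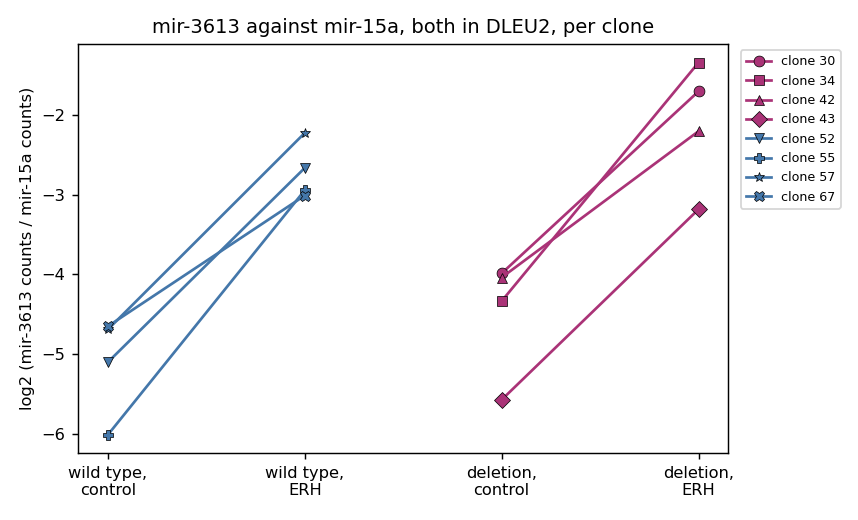
Log2 ratio of mir-3613 to mir-15a counts (vertical axis) under control and ERH shRNAs; each line joins the 2 arms of 1 clone, wild type in blue and deletion in purple. All 8 lines rise, by 1.64 to 3.07.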

How the data were processed

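Small RNA libraries (QIAseq miRNA kit, 32 libraries of 8 clones) were analysed from 1 deposited table of counts; per the file headers the values are total read counts per precursor. The submitters' processing notes name SAMtools. The aligner, annotation release, genome build, trimming and use of molecular identifiers were not given in the sources used here, so counts may hold amplification copies. 

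The 2 libraries of a clone and arm were added up. edgeR 4.0.16 (R 4.3.3) was run over all rows with filterByExpr, TMM, the quasi-likelihood test and Benjamini-Hochberg adjustment at 0.05. All 65 miRNAs passed the filter. The SE is the log2 fold change over the root of F. CPM values are TMM-scaled. The labels give each clone all vectors, which pairs its arms; the departures of its arms from their group means correlated at an r of 0.41 to 0.86. The lowest chi-square per degree of freedom was 75.4 over 48 library pairs, each of different clones with the same genotype and vector. No library was thus a copy of another in its group, and pairs across vectors, arms or genotypes were not compared. The clones derive from 1 line. In the edgeR fits with the clone as block (knockdown, interaction, control vectors), p-values rest on how the change within a clone varied among these clones. For the deletion they rest on the spread between these clones. The fits were tested on simulated data.

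The miRNAs and lists were chosen with earlier results of these data known. Named ones had the largest changes (up to 6 per direction) in the knockdown over all clones or the deletion under control shRNAs, with adjusted p under 0.05, 10 CPM or more, and 1 direction in all clones or separate genotypes. The 8 most abundant, and hairpins opposite another hairpin, were added. A list of hairpins in snoRNAs or the rRNA transcript held 0 of the 65. Alternatives were DESeq2 1.42.0, spike-in or total scaling, other filters, a GC correction, no block, single vectors and leaving out each clone.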

Additional observations from a re-analysis of the deposited data

Results flagged for a closer look

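In groups of 4 clones, 3 of 76 sets of values held a clone far from the others, where chance gives about 1 in 20. All 3 lay in wild-type clones under control shRNAs. For mir-3187, clone 67 had 12.9 CPM and the other 3 clones 5.24 to 6.30. For mir-3173, clone 67 had 76.0 CPM and the others 38.1 to 39.3. For mir-3145, clone 57 had 12.6 CPM and the others 5.89 to 6.24.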

How the results depend on the processing

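The summed share was between 1.40- and 1.49-fold higher under ERH shRNAs in deletion clones and 1.93- to 2.13-fold in wild-type clones when any 1 clone was left out, and 1.44- and 1.76-fold without mir-3144; the deletion-to-wild-type ratio of mean shares was 1.81 to 2.00 under control and 1.31 to 1.51 under ERH shRNAs. Per spike-in count the knockdown folds were 2.52 in wild-type and 1.59 in deletion clones. Counts of the 65 called in either direction moved by over 1.5 times in the settings listed next. The ranges with a clone left out are given in full, also where they moved less. For the knockdown over all clones, 38 became 20 with a mean of at least 100 counts per sum (23 of the 65 are then tested) and 24 without the replicate block, and 27 to 37 with a clone left out. In wild-type clones, 33 became 12 with that minimum (16 of the 65 are then tested), 17 without the block, 16 with shRNA 1, 1 with shRNA 2, and 16 to 28 with a clone left out. In deletion clones, 10 became 28 with spike-in and 23 with total miRNA scaling (all rows: 65 became 102 and 109), 0 without the block, 1 with shRNA 2, and 2 to 18 with a clone left out. For the deletion under control shRNAs, 18 became 34 with total scaling (all rows: 101 higher became 154), 6 with the minimum of 100 (14 of the 65 are then tested), 3 with shRNA 2, and 12 to 21 with a clone left out. Under ERH shRNAs DESeq2 called 2 in place of 0. For the interaction, 0 became 1 with DESeq2, 3 with total scaling, 2 with no filter, 2 with the minimum of 100, 1 with shRNA 1, and 0 to 3 with a clone left out (3 without clone 52, 1 without clone 67). The causes were not tested, except that the higher minimum and left-out clones leave fewer rows or samples.

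Of the values of single named miRNAs under alternatives, 509 kept direction and side of the threshold, 25 newly passed, 31 no longer passed and 16 changed sign; none of the 16 concerned a change past the threshold. With a clone left out, the deletion difference under control shRNAs ran from -0.35 to 0.84 for mir-3187 (-0.35 without clone 34), from -0.042 to 0.30 for mir-3074 (-0.042 without clone 34) and from -0.51 to 0.12 for mir-3065 (0.087 without clone 42, 0.12 without clone 43). With shRNA 1 alone it became -0.18 for mir-3187 and -0.061 for mir-3074. For mir-3065 it became 0.51 with spike-in scaling, 0.30 with total scaling, 0.063 with the minimum of 100 and 0.097 with the GC correction. The knockdown change became 0.27, 0.22 and 0.31 for mir-3065, mir-3200 and mir-3074 with spike-in scaling and 0.082, 0.033 and 0.12 with total scaling. The change of the ratio of mir-3613 to mir-15a stayed between 2.29 and 2.50. Depth limits the scarcer rows, 42 of which have a mean under 50 counts.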
